A study of Homo sapiens with 30 samples.

Results

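H3K27ac, an acetylation of lysine on histone H3, was compared between OCI-Ly1 cells given 500 nM JIB-04 and cells given only its solvent, 0.01% DMSO. OCI-Ly1 is an established human cell line of diffuse large B-cell lymphoma, and JIB-04 is a small molecule that inhibits Jumonji histone demethylases. The series concerns how faithfully heterochromatin is kept in lymphoma, and it holds 30 chromatin immunoprecipitation sequencing (ChIP-seq) libraries. The 4 used for the tests were DMSO replicates 1 and 2 and 500 nM replicates 1 and 2, all from the same unmodified line. A further 2 H3K27ac libraries from cells given 150 nM appear only as levels set beside the others, because their controls are the same DMSO libraries. The labels used here give no treatment time, and nothing in them says that replicates were separate cultures, so p-values measure the spread between these libraries, which may be technical. The regions described are all consensus H3K27ac peaks on the autosomes and chromosome X, 63249 of the 63580 peaks in the table, and 50860 of them held enough reads to be tested. Their median length was 527 bp.

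H3K27ac lies at promoters and enhancers in use. It is written by the acetyltransferases EP300 and CREBBP and removed by histone deacetylases, and it is widely read as a mark of regulatory activity, although it is not a measure of RNA. Jumonji demethylases use iron, oxygen and 2-oxoglutarate to take methyl groups off histones. The prolyl hydroxylases that sense oxygen, EGLN1 and EGLN3, belong to the same wide enzyme class and mark the transcription factor HIF1A for destruction. A separate stress pathway, the unfolded protein response of the endoplasmic reticulum, runs through the sensors ERN1, EIF2AK3 and ATF6. Its EIF2AK3 branch, like amino acid shortage, raises translation of the factor ATF4, which binds composite sites with the letters TGATGNAA near genes of amino acid supply and stress.

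Promoters from both ends of the response are shown first, because start peaks rose at 9 of 25 genes of the unfolded protein response, ASNS and CHAC1 among them, and fell at 7 of 31 genes of hypoxia and glycolysis, among them EGLN1, PFKFB3 and BNIP3. Among all 11741 genes with a listed start and a tested peak there, 504 had a start peak that rose and 139 one that fell. The calls at ASNS and PFKFB3 each held with only 1 of the 4 libraries left out. That at BNIP3 held only without DMSO replicate 1 or 500 nM replicate 2, and that at EGLN1 failed without 500 nM replicate 1. None of these held by DESeq2 or in a fit over 6 libraries. The call at CHAC1 held with any 1 library left out and over 6 libraries, but not by DESeq2. Each sequence is the 250 bases before a gene start, read 5′ to 3′ on the gene's strand from RefSeq, build GRCh38.p14. ASNS is at chr7:97872409-97872658 on the minus strand, CHAC1 at chr15:40953221-40953470 on the plus strand and EGLN1 at chr1:231422288-231422537 on the minus strand. PFKFB3 is at chr10:6202682-6202931 on the plus strand and BNIP3 at chr10:131981924-131982173 on the minus strand. Capitals mark a match to TGATGNAA, read on either strand, in ASNS and CHAC1, and a match to ACGTG, the core of sites bound by HIF1A, on either strand in the other sequences.
ASNS: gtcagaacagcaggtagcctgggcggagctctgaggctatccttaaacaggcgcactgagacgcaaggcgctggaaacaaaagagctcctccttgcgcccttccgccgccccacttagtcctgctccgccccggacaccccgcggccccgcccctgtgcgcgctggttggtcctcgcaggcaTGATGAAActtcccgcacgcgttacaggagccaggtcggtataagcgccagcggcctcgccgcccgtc
CHAC1: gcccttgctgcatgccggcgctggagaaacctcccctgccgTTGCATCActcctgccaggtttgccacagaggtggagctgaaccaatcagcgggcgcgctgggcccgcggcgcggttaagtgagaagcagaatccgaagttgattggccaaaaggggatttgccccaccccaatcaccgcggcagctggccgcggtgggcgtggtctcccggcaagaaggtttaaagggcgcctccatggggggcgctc
EGLN1: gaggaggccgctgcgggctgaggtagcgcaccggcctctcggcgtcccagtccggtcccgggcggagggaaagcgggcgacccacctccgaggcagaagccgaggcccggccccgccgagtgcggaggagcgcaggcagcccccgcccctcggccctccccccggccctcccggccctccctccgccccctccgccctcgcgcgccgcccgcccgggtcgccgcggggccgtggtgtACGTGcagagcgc
PFKFB3: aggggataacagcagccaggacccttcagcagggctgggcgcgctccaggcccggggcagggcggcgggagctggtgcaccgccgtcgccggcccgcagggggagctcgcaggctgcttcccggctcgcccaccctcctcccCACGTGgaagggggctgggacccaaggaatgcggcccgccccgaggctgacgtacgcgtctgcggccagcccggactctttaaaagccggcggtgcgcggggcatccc
BNIP3: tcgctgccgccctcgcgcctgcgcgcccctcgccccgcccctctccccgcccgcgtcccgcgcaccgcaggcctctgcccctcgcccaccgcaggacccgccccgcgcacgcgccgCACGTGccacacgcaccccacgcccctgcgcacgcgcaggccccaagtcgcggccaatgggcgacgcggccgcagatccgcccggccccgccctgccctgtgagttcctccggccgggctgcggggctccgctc
The match in ASNS starts at -68 from the gene start and that in CHAC1 at -209. Those in EGLN1, PFKFB3 and BNIP3 start at -13, -108 and -134, and PFKFB3 and BNIP3 hold the palindrome CACGTG, which reads as ACGTG on both strands. All windows lie inside the called H3K27ac peak except that of BNIP3, whose peak reaches only its last bases.

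Reads in peaks numbered 4360660 and 5073651 in the DMSO libraries and 5410292 and 5197328 in the 500 nM libraries, with a median of 21 to 24 reads per peak. All 9 B-cell markers, among them MS4A1, CD79A and PAX5, had a tested peak at the gene start. Markers of other cells did so in 7 of 12 cases for T cells, led by LCK, and in 1 of 12 each for myeloid cells (CEBPE) and for fibroblasts and epithelium (EPCAM), while CD3G, CD4, CD14 and LYZ had none. Summed over the 9 T-cell markers measured gene-wise, the level was 666 and 676 CPM in DMSO and 618 and 604 CPM at 500 nM. Over the 2 myeloid genes measured, LYZ and CEBPE, it was 26.8 and 27.5 CPM against 34.1 and 33.3 CPM. The part of other cell types in the results was not tested. For a peak, CPM is the read count scaled by the library's reads in tested peaks. For gene-wise values the scale is the library's sum over tested genes, where a peak may count several times. Peak and gene-wise CPM are thus not on the same scale. DMSO replicate 2 stood apart in reads on 5 unplaced contigs, with 363 against 1674 to 2173 in the other 3, and the second principal component, with 29.6% of the variance, separated the DMSO replicates. The first, with 43.5%, separated the treatments. Variance between libraries, as chi-square per degree of freedom over peaks, was 1.32 between the DMSO replicates, 1.25 between the 500 nM replicates and 1.95 to 2.19 across the treatments. The 150 nM replicates differed from each other by 2.39, more than replicate 1 at that dose differed from DMSO replicate 1, at 1.28, so a level at 150 nM is only as firm as its spread.

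H3K27ac was higher at 500 nM in 1140 peaks and lower in 881, which is 2.24% and 1.73% of the peaks tested and 3.97% in all (edgeR quasi-likelihood test, adjusted p under 0.05). A larger share of losses than of gains lay outside genes, in this fit and in all others run. A larger share of gains than of losses lay at gene starts, but this did not hold without 500 nM replicate 2 or by DESeq2. In bulk chromatin a change in fewer cells and a smaller change in every cell cannot be told apart. Peaks at a gene start, within 1000 bp of it, made up 38.8% of the gains and 19% of the losses, while peaks outside any gene made up 17.7% of the gains and 31.9% of the losses. At gene starts 442 of 14530 peaks were higher (3.04%) and 167 lower (1.15%), and the median log2 fold change there was 0.06. Inside genes, away from starts, 496 were higher and 433 lower of 25959, with a median of -0.03. Outside genes 202 were higher and 281 lower of 10371, with a median of -0.06. The median library level of gene starts over other peaks also differed between the DMSO replicates, by 1.60 and 1.73 on the log2 scale, beside 1.72 and 1.77 at 500 nM, and its part in the place of the calls was not tested. The median change in size was 0.56 among gains and 0.48 among losses on the log2 scale, and 227 gains and 103 losses reached 1. In 1137 of the gains and 877 of the losses both 500 nM libraries lay beyond both DMSO libraries. The same held for 20904 of the 48839 peaks not called, so this adds little to a call. The counts were smaller with 1 library fewer. Gains numbered 629 without DMSO replicate 1, 611 without DMSO replicate 2, 587 without 500 nM replicate 1 and 378 without 500 nM replicate 2, and losses in the same order 548, 317, 285 and 197. Gene starts then made up 30.05%, 45.3%, 36.1% and 23.8% of gains and 26.6%, 15.8%, 19.6% and 25.9% of losses, so the order turned without 500 nM replicate 2 and the gap was small without DMSO replicate 1. By DESeq2 they made up 27.8% of 108 gains and 29.6% of 54 losses, and over 6 libraries 24.8% of 318 and 20.8% of 125. Peaks outside genes made up 18.9%, 15.2%, 18.1% and 21.4% of gains and 29.2%, 31.9%, 33.3% and 32.0% of losses with each library left out in the same order. In number, gains at starts were 189, 277, 212 and 90 and losses 146, 50, 56 and 51, gains inside genes 321, 241, 269 and 207 and losses 242, 166, 134 and 83, and gains outside genes 119, 93, 106 and 81 and losses 160, 101, 95 and 63.

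**Figure D1:**
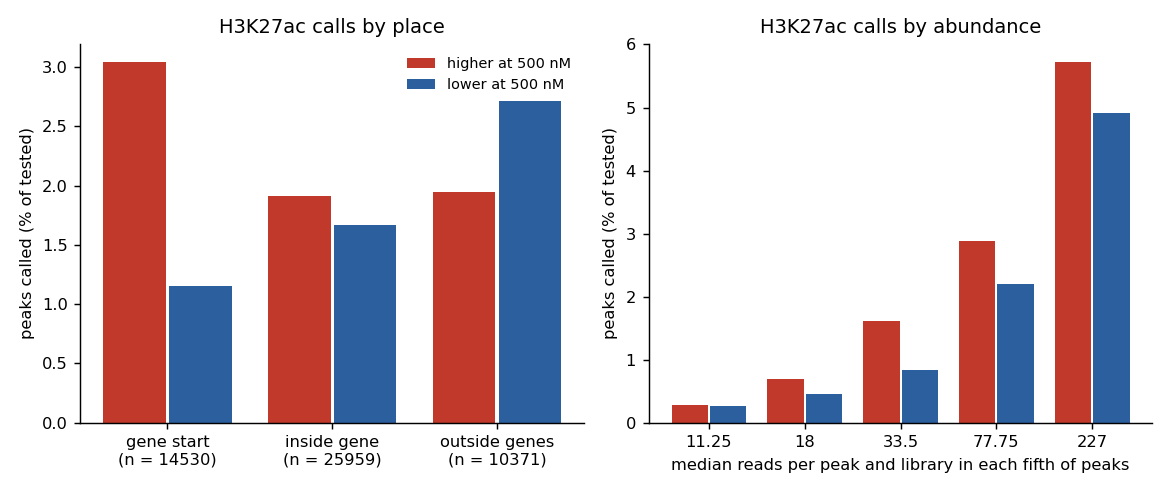
Share of tested H3K27ac peaks called higher (red) or lower (blue) at 500 nM, in percent, by place of the peak (left) and over 5 equal groups of peaks ordered by reads (right, median reads per peak and library on the axis). Gains outnumber losses at gene starts, 3.04% against 1.15%, losses outnumber gains outside genes, and the share called grows with the reads in a peak.

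Deep peaks carried most of the calls. In the 5 equal groups of peaks ordered by abundance the share called was 0.541%, 1.15%, 2.46%, 5.09% and 10.6%, for median reads of 11.2, 18, 33.5, 77.8 and 227. The median size of the called changes fell over the same groups from 1.93 to 0.38 on the log2 scale. Called peaks were long, with a median of 1814.5 bp among gains and 2203 bp among losses beside 673 bp among peaks not called. A small peak with a like change could thus be missed, and an uncalled peak is not shown to be unchanged.

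H3K4me3, a methylation mark of active promoters, was measured in its own libraries, 2 for DMSO and 2 for 500 nM, and differed in how it went with gains and losses. Of 18733 tested H3K27ac peaks that overlapped a tested H3K4me3 peak, 11.5% had H3K4me3 higher and 24.4% lower at 500 nM. Among the 338 losses with such a partner 206 had H3K4me3 lower (60.9%) and 10 higher, and at gene starts 97 of 134 did (72.4%). Among the 510 gains with a partner 113 had H3K4me3 higher (22.2%) and 78 lower (15.3%). Gains at gene starts had H3K4me3 higher in 58 and lower in 63 of 395 (14.7% and 15.9%), with a median change of -0.03. Over all 12997 pairs at gene starts these shares were 10.3% and 24.3%. Gains away from gene starts had H3K4me3 higher in 55 of 115 cases (47.8%) and lower in 15, with a median of 0.40. Over all 5736 pairs away from gene starts the shares were 14.3% and 24.6%. H3K27ac libraries were also left out 1 at a time, with the H3K4me3 calls kept from the full fit. Pairs with both marks higher then numbered 72 without replicate 1 of DMSO and 52 without replicate 2 of 500 nM. Pairs with both lower numbered 74 without replicate 2 of DMSO, 84 without replicate 1 of 500 nM and 69 without replicate 2 of 500 nM.

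**Figure D2:**
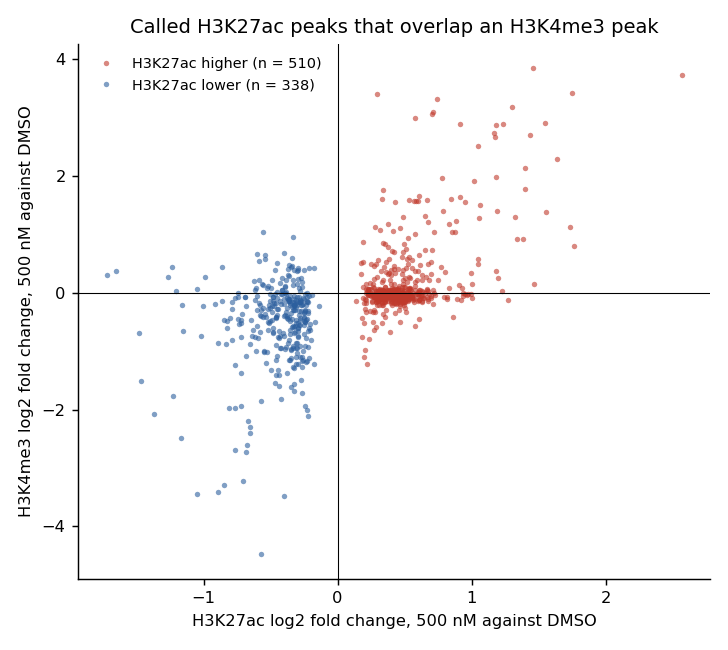
Log2 fold change of H3K27ac (horizontal) and of the overlapping H3K4me3 peak (vertical), 500 nM against DMSO, for called H3K27ac peaks, 510 higher (red) and 338 lower (blue). Most losses lie below the horizontal line, whereas gains spread to both sides of it.

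Among start peaks above the median abundance, to which the named peaks are limited, the largest gains were next to genes of varied function. Named peaks also had to have both 500 nM libraries beyond both DMSO libraries. Called peaks of lower abundance had larger changes. The peak over KCNK15, a potassium channel gene, and the end of RIMS4 (chr20:44751829-44752788) had 4.62 and 2.01 CPM in DMSO and 10.6 and 11.3 CPM at 500 nM, a log2 fold change of 1.75 ± 0.28 (SE; adjusted p = 2.79e-07). BATF3, a transcription factor of the AP-1 family, had 8.09 and 6.85 CPM in DMSO and 18.7 and 20.1 CPM at 500 nM (chr1:212700020-212701277; 1.38 ± 0.20, adjusted p = 2.06e-09). RIMS3, whose product acts in vesicle release, had 15.5 and 11.1 CPM against 31.2 and 35.4 CPM (chr1:40662756-40665120; 1.34 ± 0.15, adjusted p = 1.9e-15). In these 3 peaks the 500 nM libraries lay far above both DMSO libraries, and the 150 nM libraries lay near or below them, with 4.3 and 2.1 CPM at KCNK15, 5.81 and 5.34 CPM at BATF3 and 12.3 and 10.1 CPM at RIMS3. INHBE, a subunit of activin-type hormones, had 14.6 and 13.5 CPM in DMSO, 10.1 and 9.92 CPM at 150 nM and 27.4 and 38.7 CPM at 500 nM (chr12:57454573-57456249; 1.23 ± 0.15, adjusted p = 2.07e-13). The other start peaks in this group belonged to the uncharacterised genes LOC124903058, with 1.43, and LOC105370775, with 1.29. For KCNK15, BATF3 and INHBE, as for HILPDA, LOC124905345 and LOC105378027 below, either end of the gene was taken as a start. The peaks of these genes are thus not shown to be at a promoter. H3K4me3 rose at 5 of the 6, all but LOC105370775, which had no H3K4me3 partner. At KCNK15 it was 1.15 and 1.18 CPM in DMSO and 12.9 and 12.2 CPM at 500 nM (log2 fold change 3.4, adjusted p = 8.77e-16), and at INHBE 7.64 and 6.89 CPM against 49.5 and 59.6 CPM (2.89, adjusted p = 4.41e-24).

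Inside genes the largest gain above the median abundance was in UNC5B, a netrin receptor gene, at chr10:71265284-71267117. It had 6.93 and 6.44 CPM in DMSO and 25.7 and 22.9 CPM at 500 nM (1.86 ± 0.19, adjusted p = 9.22e-19). ERN1, the endoplasmic reticulum stress sensor, held a peak with 3.7 and 5.64 CPM against 16.8 and 15.5 CPM (chr17:64081767-64082933; 1.76 ± 0.23, adjusted p = 2.57e-11). TBC1D16, which codes for an activator of Rab GTPases, had 18 and 19.9 CPM in DMSO and 54.4 and 57.3 CPM at 500 nM (chr17:79991978-79994450; 1.55 ± 0.12, adjusted p = 3.35e-32). At that last peak the 150 nM libraries were below DMSO, with 11.8 and 11.4 CPM, and H3K4me3 went from 3.2 and 2.07 CPM in DMSO to 21.6 and 18.6 CPM at 500 nM. PEX14, a peroxisome import gene, rose by 1.67, and ASS1, the argininosuccinate synthase of arginine supply, by 1.51. Outside genes the named gains lay between ARL15 and HSPB3 (1.44), ACSL3 and KCNE4 (1.43), GDPD5 and SERPINH1 (1.40) and BPIFB1 and CDK5RAP1 (1.27). The third of these, chr11:75554019-75555513, lay 6740 bp from SERPINH1, a collagen chaperone gene, and had 8.55 and 5.84 CPM in DMSO and 18.7 and 19 CPM at 500 nM. All 15 named gains were called with each of the 4 libraries left out in turn and in the fit over 6 libraries, and 10 by DESeq2.

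HILPDA and KDM4B, both known as hypoxia-induced genes, were among the named losses at gene starts, where an unlisted start means either gene end. The steepest above the median abundance was at the noncoding gene LOC102724482, 54958 bp from the glycolytic gene HK2 (chr2:74777249-74779169), with 25.7 and 30.2 CPM in DMSO, 20.9 and 22.7 CPM at 150 nM and 14.3 and 10.6 CPM at 500 nM (-1.17 ± 0.16, adjusted p = 1.45e-10). HILPDA, which codes for a lipid droplet protein induced by hypoxia, had 21.5 and 26 CPM against 12.7 and 13.9 CPM (chr7:128458011-128459187; -0.85 ± 0.16, adjusted p = 3.89e-05). That peak lies over the end of HILPDA with the higher coordinate (span chr7:128455878-128458418). It is not shown to be at the promoter. KDM4B, a Jumonji demethylase of methylated H3 lysine 9 and itself known as a hypoxia-induced gene, had 37.9 and 47.9 CPM in DMSO, 29.5 and 39.5 CPM at 150 nM and 22.3 and 26.2 CPM at 500 nM at a peak that ends 484 bp before its start (chr19:4966686-4968629; -0.83 ± 0.12, adjusted p = 6.41e-09). Groups did not overlap in any of these peaks, which was a condition for naming them. H3K4me3 fell at LOC102724482, HILPDA and KDM4B, by 2.49, 0.46 and 0.88 on the log2 scale. LOC124905345, inside ABR, fell by 1.16, C12orf76 by 0.92 and LOC105378027 by 0.82. H3K4me3 changed by only -0.20 at LOC124905345 and was not called at C12orf76 (-0.19, adjusted p = 0.656). LOC105378027 had no H3K4me3 partner.

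Inside genes the named losses were in PRKCA (-1.24), GALM (-1.01), FBXL16 (-1.005), SEMA3A (-0.99) and CNTRL (-0.99). PRKCA codes for a protein kinase C, and its peak had 12.7 and 13.7 CPM in DMSO and 5.66 and 5.48 CPM at 500 nM (chr17:66395433-66396382; SE 0.23, adjusted p = 2.2e-05). Outside genes they lay beyond PPHLN1 (-1.07), VMA22 (-1.07), TNS1 (-1.05) and between ZNF217 and BCAS1 (-1.05). The first of these, 1048 bp past PPHLN1, had 21.5 and 23.8 CPM in DMSO and 10.2 and 11.3 CPM at 500 nM (chr12:42449669-42451312; SE 0.17, adjusted p = 2.09e-07). The peak 1943 bp from TNS1 had 9.71 and 9.06 CPM against 4.91 and 4.11 CPM, and its H3K4me3 went from 27.8 and 21.6 CPM to 2.13 and 2.46 CPM (log2 fold change -3.44). Of the 15 named losses 4 were called with each library left out in turn, 11 over 6 libraries and 3 by DESeq2.

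**Figure D3:**
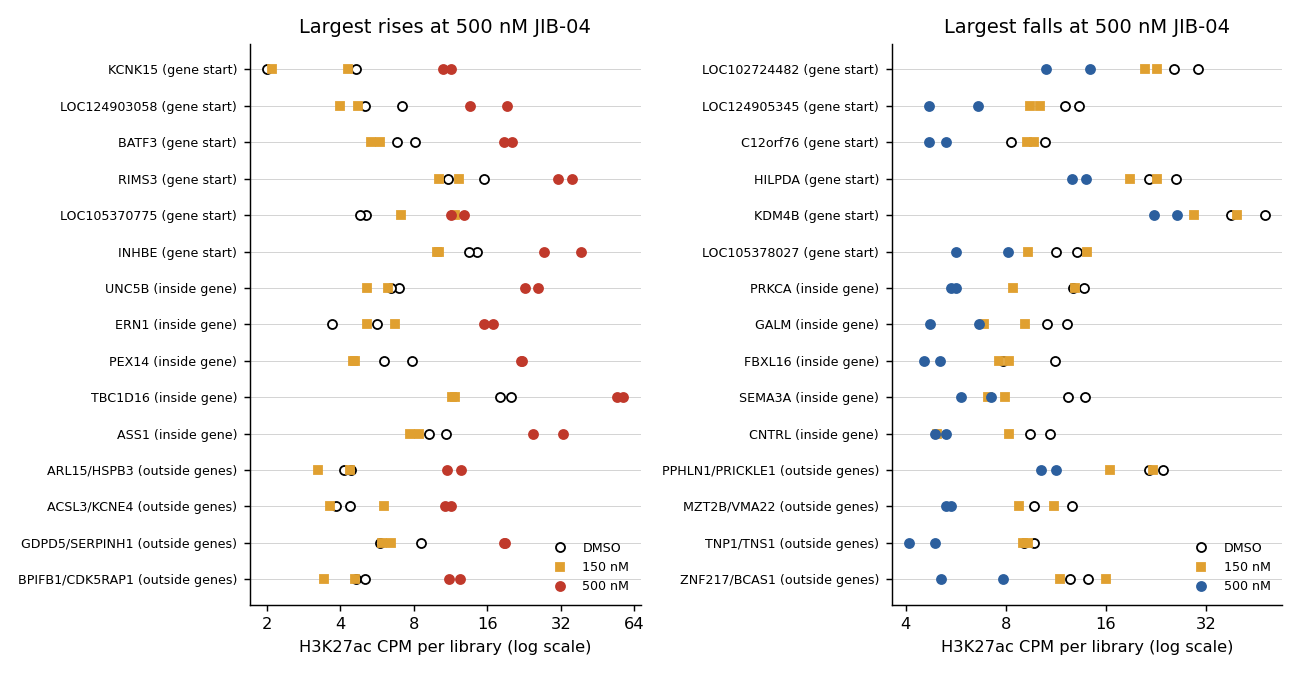
H3K27ac CPM on a log axis, 1 point per library, at the 15 named gains (left) and 15 named losses (right) for DMSO (open circles), 150 nM (squares) and 500 nM (filled circles). The 500 nM libraries lie beyond both DMSO libraries in every row, by the rule that chose the rows. Most 150 nM libraries of the left panel lie near or below DMSO.

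Some called peaks lay in runs. Called gains fell into 956 runs with gaps of at most 50000 bp, 35 of them with 3 peaks or more, and losses into 667 runs, 43 with 3 or more. The levels given for a run are sums over all tested peaks in its span, called or not. The longest run of gains held 6 called peaks across the long noncoding RNA genes NEAT1 and MALAT1 and FRMD8 on chromosome 11. The 21 tested peaks of that span summed to 1013 and 1068 CPM in DMSO and 1202 and 1208 CPM at 500 nM. A run of 5 lay over CCDC12 on chromosome 3, in a span of 11 tested peaks with 144.5 and 144.2 CPM against 223 and 227 CPM. The third named, 1 of 9 runs of 4 peaks, crossed SNN, LITAF and TXNDC11 on chromosome 16. Its span of 15 tested peaks had 215 and 213 CPM against 239 and 240 CPM. The named runs of losses were all on chromosome 8. ASAP1, which codes for a GTPase-activating protein of membrane traffic, held 7 called peaks. The 11 tested peaks of that span had 2852 and 2871 CPM in DMSO and 2453 and 2427 CPM at 500 nM. A run of 6 called peaks lay at PLEKHF2 and NDUFAF6, in a span of 26 tested peaks with 5003 and 4904 CPM against 4429 and 4318 CPM. A run of 5 lay at RALYL, 1 of 4 of that length. Its span of 41 tested peaks had 576 and 463 CPM against 453 and 442 CPM. On chromosome 8 as a whole 1.42% of tested peaks were higher and 2.14% lower.

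To lower the counting error, reads were summed per gene over all peaks within 5000 bp of its span. Of 18202 genes tested 665 were higher (3.65%) and 910 lower (5.0%), 8.65% in all, around a median log2 fold change of 0.01. Scaling by the total count, here of the gene sums, turned the balance, with 928 higher and 737 lower, or 55.7% of the calls higher against 42.2%. Without DMSO replicate 2 there were 420 higher, without 500 nM replicate 1 there were 418, and without 500 nM replicate 2 there were 284 higher and 410 lower. Of protein-coding genes above the median abundance, to which the named genes are limited, TBC1D16 had the largest gain, from 18.1 in both DMSO libraries to 46.1 and 49.9 CPM (1.41 ± 0.10, adjusted p = 9.99e-09), with 13 and 12.4 CPM at 150 nM. CCM2L had 17.1 and 17.5 CPM in DMSO, 12 and 11.8 CPM at 150 nM and 35.5 and 40.9 CPM at 500 nM (1.14 ± 0.11, adjusted p = 4.92e-07). BATF3 rose by 1.00, ERN1 by 0.98, GPR179, which shares its peaks with MRPL45, by 0.94, LOC124905566 by 0.91 and JAKMIP1 by 0.66. GSDME, a pore-forming gasdermin, had 80.4 and 84.7 CPM in DMSO, 103 and 92.7 CPM at 150 nM and 147 and 139 CPM at 500 nM, the only gene-wise gain of these 8 with both 150 nM libraries above both DMSO libraries.

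Within the same limit on abundance NRN1, the neuritin gene, had the largest gene-wise loss, with 48.1 and 56.6 CPM in DMSO and 30.6 and 29.1 CPM at 500 nM (-0.82 ± 0.09, adjusted p = 3.69e-06). CYP2W1, a cytochrome P450 gene that shares its peaks with CHLSN, had 93.2 and 109 CPM against 60.4 and 57.8 CPM (-0.78 ± 0.08, adjusted p = 3.47e-07). GARRE1, which adjoins the glycolytic gene GPI on chromosome 19, had 120 and 128 CPM in DMSO, 106 and 102 CPM at 150 nM and 76.4 and 74.7 CPM at 500 nM (-0.72 ± 0.06, adjusted p = 8.59e-08). SCX fell by 0.68, HILPDA by 0.62, and FETUB and the ephrin readthrough EFNA4-EFNA3 by 0.59 each. PPHLN1 codes for periphilin, a subunit of the HUSH silencing complex that works with methylated H3 lysine 9. It had 131 and 128 CPM in DMSO, 126 and 101 CPM at 150 nM and 87.7 and 86 CPM at 500 nM (-0.58 ± 0.06, adjusted p = 9.46e-07).

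More genes of the unfolded protein response rose than fell. Of 25 measured members 8 were higher and 1, EDEM1, lower, beside 3.65% and 5.0% of all genes. The median log2 fold change was 0.15 against 0.01 over all genes. A start peak rose at 9 members, beside 504 of the 11741 genes with a listed start and a tested peak there (3.04% of all start peaks). Without DMSO replicate 1 the start peaks of 4 members rose, without DMSO replicate 2 those of 7, without 500 nM replicate 1 those of 5 and without 500 nM replicate 2 those of 4, and over 6 libraries 3 rose and by DESeq2 only that of PPP1R15A. ERN1 had 44.2 and 43.2 CPM in DMSO and 80.7 and 91.6 CPM at 500 nM (0.98 ± 0.08, adjusted p = 1.48e-08). SESN2, a stress-induced inhibitor of growth signalling, had 16.2 and 14.6 CPM in DMSO, 12 and 12.3 CPM at 150 nM and 23.1 and 25.8 CPM at 500 nM (0.67 ± 0.13, adjusted p = 0.00163). CHAC1, an ATF4 target that breaks down glutathione, had 31.1 and 34.8 CPM in DMSO, 21.6 and 23.5 CPM at 150 nM and 44.6 and 47.5 CPM at 500 nM (0.48 ± 0.09, adjusted p = 0.00153). In SESN2 and CHAC1 the order was the same, with 150 nM lowest and 500 nM highest and no overlap between the groups. TRIB3, a pseudokinase induced by ATF4 and DDIT3, had 68.6 CPM in both DMSO libraries, 47.5 and 58.9 CPM at 150 nM and 87.3 and 93.9 CPM at 500 nM (0.40 ± 0.07, adjusted p = 0.000506). HSPA5, the main chaperone of the endoplasmic reticulum, had 25.1 and 27.8 CPM in DMSO, 32.5 and 36.4 CPM at 150 nM and 36.2 and 35.4 CPM at 500 nM (0.43 ± 0.10, adjusted p = 0.0078). It was thus above DMSO at both doses, unlike TRIB3 and CHAC1.

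The remaining gains in the group were ASNS, the asparagine synthetase (0.37), PPP1R15A, which restores translation after stress (0.33), and ATF4 itself (0.19). ATF4 had 131 and 126 CPM in DMSO, 124 and 148 CPM at 150 nM and 148 and 144 CPM at 500 nM (SE 0.06, adjusted p = 0.0379), and it lost its call with any 1 library left out. DDIT3, the stress factor CHOP, was called at its start peak, with 34.9 and 38.9 CPM against 49.7 and 51.8 CPM (0.46 ± 0.11, adjusted p = 0.0022), but not gene-wise (0.08, adjusted p = 0.491). Other members gave no call, among them EIF2AK3 (0.03), HERPUD1 (0.05), DDIT4 (0.01), PDIA6 (0.00) and XBP1 (0.37 ± 0.21, adjusted p = 0.308). H3K4me3 rose at the start peaks of CHAC1 (0.62), PPP1R15A (0.59), DDIT3 (0.41), SESN2 (0.37), TRIB3 (0.22) and ASNS (0.15), while at ATF4 it was -0.07 (adjusted p = 0.131) and at HSPA5 0.08 (adjusted p = 0.113). The group had 6 or 7 members higher with any 1 library left out, 3 over 6 libraries and 2 by DESeq2. EDEM1, with 172 and 169 CPM against 159 and 141 CPM (-0.19, adjusted p = 0.0488), lost its call under every other scaling.

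Cytosolic aminoacyl-tRNA synthetases, which load amino acids onto tRNAs and include known ATF4 targets, were looked at after the values of WARS1 had been seen. Of 20 genes 2 were higher and none lower gene-wise, beside 3.65% and 5.0% of all genes. They were WARS1 (0.62 ± 0.08, adjusted p = 2.72e-05), which prompted the list, and VARS1 (0.34 ± 0.08, adjusted p = 0.00859). VARS1 lost its call when replicate 1 of either treatment was left out. Start peaks rose at 5 of the 20, beside 504 of the 11741 genes with a listed start and a tested peak there. WARS1 had 42.5 and 45.1 CPM in DMSO, 33.8 and 38.7 CPM at 150 nM and 69.1 and 70.8 CPM at 500 nM at its start peak. Start peaks also rose at FARSB (0.34), KARS1 (0.29) and MARS1 (0.40), but FARSB and MARS1 lost the call with any 1 library left out, KARS1 kept it only without DMSO replicate 2, and none of these 3 was called by DESeq2 or over 6 libraries. MARS1, DDIT3 and INHBE lie within the same stretch of chromosome 12, each with a start peak that rose.

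Every called gene of hypoxia and glycolysis was lower. Of 32 measured members 10 fell and none rose, beside 5.0% and 3.65% of all genes, with a median log2 fold change of -0.20. A start peak fell at 7 members, beside 139 of the 11741 genes with a listed start and a tested peak there (1.15% of all start peaks). Of these 7 start calls only that of ADM held without 500 nM replicate 1, 2 held without DMSO replicate 2, 4 without 500 nM replicate 2 and 6 without DMSO replicate 1, and none held by DESeq2 or over 6 libraries. No member was higher at an unadjusted p under 0.05 either, or by DESeq2. GPI, glucose-6-phosphate isomerase, had 189 and 194 CPM in DMSO, 160 and 172 CPM at 150 nM and 133 and 128 CPM at 500 nM (-0.55 ± 0.05, adjusted p = 4.32e-07). PFKP, a phosphofructokinase, had 25.5 and 26 CPM in DMSO, 21.6 and 22.7 CPM at 150 nM and 16.4 and 16.7 CPM at 500 nM (-0.64 ± 0.12, adjusted p = 0.00149). EGLN1, the main oxygen-sensing hydroxylase, had 39.9 and 35.6 CPM in DMSO, 26.5 and 33.6 CPM at 150 nM and 23.7 and 27.3 CPM at 500 nM (-0.56 ± 0.10, adjusted p = 0.00127). In all 3 genes the 150 nM libraries lay below both DMSO libraries, and in GPI and PFKP they lay between the other groups without overlap. EGLN3, its relative, had 8.26 and 12.5 CPM against 7.29 and 5.72 CPM (-0.69 ± 0.22, adjusted p = 0.0483) and was close to the threshold.

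Along the glycolytic chain the further losses were PGAM1 (-0.46), PKM (-0.32), PFKFB3 (-0.30), TPI1 (-0.29) and ENO1 (-0.27), together with ADM, the adrenomedullin gene (-0.32). PKM, the pyruvate kinase of the last step, had 113 and 120 CPM in DMSO, 96.6 and 104 CPM at 150 nM and 95 and 91.5 CPM at 500 nM (SE 0.06, adjusted p = 0.00151). Members without a gene-wise call were mostly below 0 as well, such as ALDOA (-0.14, adjusted p = 0.128), GAPDH (-0.16, adjusted p = 0.0732), PGK1 (-0.37, adjusted p = 0.0559) and PDK1 (-0.27, adjusted p = 0.0741). SLC2A1 (0.00), VEGFA (0.09), MXI1 (0.05) and KDM3A (0.05) were near 0, and 7 of the 32 were above it. Start peaks fell at EGLN1, BNIP3, ADM, HK2, PFKFB3, ALDOA and TPI1, by 0.50, 0.63, 0.26, 0.68, 0.43, 0.23 and 0.40 on the log2 scale. H3K4me3 fell at the same starts in its own libraries, from 288 and 284 CPM to 139 and 128 CPM at ADM (-1.10), from 137 and 138 CPM to 86.6 and 89.5 CPM at BNIP3 (-0.64) and from 198 and 191 CPM to 124 CPM in both at PFKFB3 (-0.66). Lower members numbered 7 to 11 with any 1 library left out and 8 under scaling by the total count, and 4 over 6 libraries and 3 by DESeq2.

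**Figure D4:**
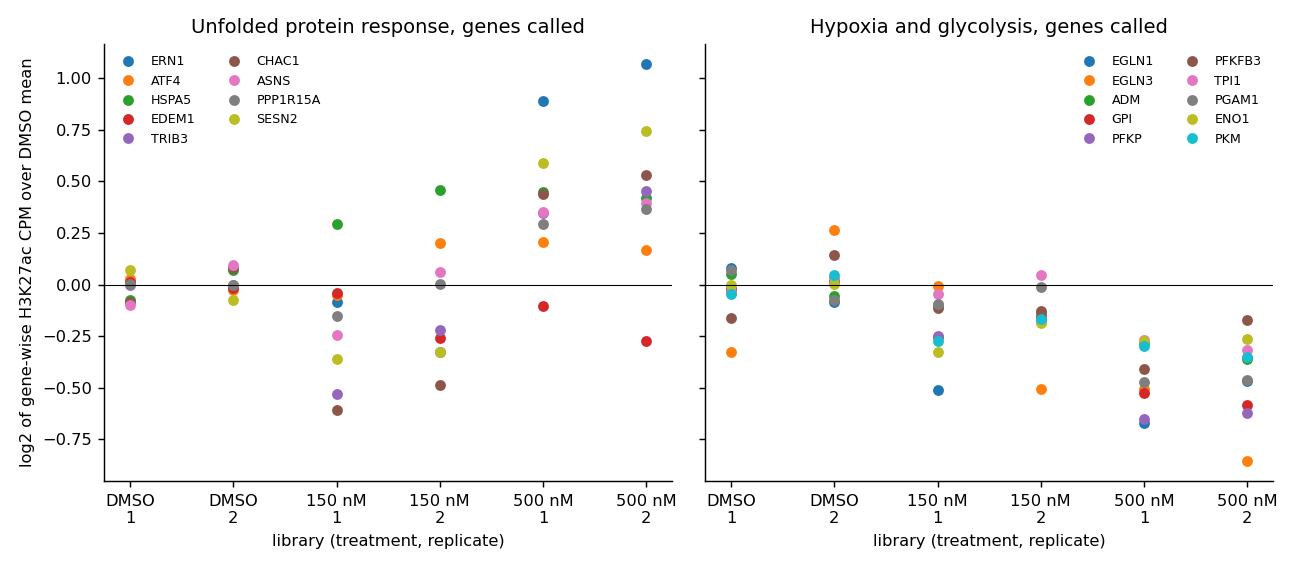
Log2 of the gene-wise H3K27ac CPM over the DMSO mean, 1 point per gene and library, for called members of the unfolded protein response (left) and of hypoxia and glycolysis (right). At 500 nM all called genes of the left panel but EDEM1 lie above 0 and all of the right panel lie below it, while at 150 nM CHAC1, TRIB3 and SESN2 lie below 0.

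In B-cell receptor signalling 6 of 23 measured genes were lower and 1 higher, with a median of -0.13. Over all genes 5.0% were lower and 3.65% higher, and the counts of the gene groups that follow are to be read beside these shares. CD79B, a chain of the receptor, had 162 and 163 CPM in DMSO, 154 and 167 CPM at 150 nM and 133 and 142 CPM at 500 nM (-0.24 ± 0.06, adjusted p = 0.00765). BLNK, the adaptor below it (-0.33), MS4A1, which codes for CD20 (-0.24), VAV1 (-0.20) and PIK3AP1 (-0.19) were among the losses too. CD81, a tetraspanin of the cell surface, rose from 270 and 288 CPM to 334 and 343 CPM (0.28 ± 0.05, adjusted p = 0.000729). The 6 losses became 3 under scaling by the total count, 2 without DMSO replicate 2, 2 without 500 nM replicate 1, 1 without 500 nM replicate 2 and 0 by DESeq2, whereas CD81 was called in all of these. Over 6 libraries none of the 7 was called, and the adjusted p of CD81 was 0.0997.

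Among germinal centre transcription factors 4 of 23 were lower and none higher (no member at an unadjusted p under 0.05, and 0 by DESeq2), with a median of -0.07. They were SPIB (-0.26), ID3 (-0.24), TCF4 (-0.19) and PAX5, the B-cell commitment factor (-0.16), which had 689 and 717 CPM in DMSO and 640 and 618 CPM at 500 nM. The count was 2 without DMSO replicate 1 or 2 and 1 without 500 nM replicate 2. BACH2, a repressor of plasma cell fate, rose at its start peak, from 162 and 172 CPM to 195 and 200 CPM (0.24 ± 0.06, adjusted p = 0.0091), but it kept the call only with DMSO replicate 2 left out, and its gene-wise value was -0.04 (adjusted p = 0.704). Migration and adhesion receptors had 4 of 24 lower, among them P2RY8, GNA13 and EZR, with 2 left without DMSO replicate 1 and 1 without 500 nM replicate 2. Among 10 class II genes CD74, the invariant chain (-0.26), and CIITA, the class II activator (-0.18), fell, with 1 left without any library but DMSO replicate 2. Of 13 plasma cell genes CD38 (-0.46) and TNFRSF13B (-0.18) fell, with 1 left without any library but DMSO replicate 1. Beside these, the T-cell markers CD2 (-0.32) and CD8A (-0.33) were lower gene-wise too, 2 of 9 measured, with 1 left without DMSO replicate 2 and 0 without 500 nM replicate 2.

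Among genes for the drug's own targets KDM4B had the largest gene-wise change. Of 19 measured Jumonji demethylase genes 3 were lower and none higher (no member at an unadjusted p under 0.05, and 0 by DESeq2), namely KDM4B (-0.54), KDM7A (-0.42) and KDM6A (-0.30), with only 1 left without 500 nM replicate 2. KDM4B had 40.6 and 50 CPM in DMSO, 36 and 40.3 CPM at 150 nM and 31.1 and 31.5 CPM at 500 nM (SE 0.10, adjusted p = 0.00099). KDM6B, the H3 lysine 27 demethylase, held neighbouring start peaks that moved apart, 1 of 4247 bp with 99.2 and 105 CPM against 83.6 and 88.8 CPM (-0.25 ± 0.08, adjusted p = 0.0449) and 1 of 7093 bp with 151 and 155 CPM against 180 and 185 CPM (0.25 ± 0.07, adjusted p = 0.00748). The lower peak lost its call under median-of-ratios scaling (adjusted p = 0.0504), without the filter on low counts, without each library but DMSO replicate 1, by DESeq2 and over 6 libraries, and the higher peak without replicate 1 of 500 nM or replicate 2 of 500 nM, by DESeq2 and over 6 libraries. Its gene-wise value was 0.03. Start peaks rose at JMJD1C (0.40) and KDM5A (0.29), but neither was called by DESeq2 or over 6 libraries, KDM5A lost its call with any 1 library left out and JMJD1C with any but DMSO replicate 1. In the H3K9 methylation and HP1 group PPHLN1 and ATF7IP (-0.27) were the 2 of 16 that fell, with 1 left without DMSO replicate 1 or 500 nM replicate 2, and SUV39H1, the H3 lysine 9 methyltransferase, rose at its start peak (0.47 ± 0.14, adjusted p = 0.0302), a call kept only with DMSO replicate 2 left out. Of 23 genes of acetylation and deacetylation KAT2B, an acetyltransferase (-0.35), and the deacetylases HDAC7 (-0.26) and HDAC9 (-0.21) fell, none of them by DESeq2 or over 6 libraries.

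In the groups of chaperones, of the proteasome and of autophagy and lysosome 4, 3 and 3 genes were called higher and none lower, beside 3.65% of all genes higher, and none of these was called by DESeq2 or over 6 libraries. Heat shock and chaperones had 4 of 19 higher, the mitochondrial HSPA9 (0.33), HSPD1 and HSPE1 (0.28 each, over shared peaks) and HSP90AB1 (0.21). None of these was left without DMSO replicate 1 or 500 nM replicate 2, and 1 without either of the other libraries. Of 33 proteasome genes 29 were above 0, with a median of 0.12, and PSMC5 (0.28), PSMD7 (0.30) and POMP (0.36) were called. Loess scaling left 1 of the 3, and 0, 1, 2 and 0 were called without DMSO replicates 1 and 2 and 500 nM replicates 1 and 2. Autophagy and lysosome genes had 3 of 27 higher, MAP1LC3B (0.33), SQSTM1 (0.22) and WIPI1 (0.21), and leaving out any 1 library left 1 of the 3. NFE2L1, a regulator of proteasome genes, had 170 and 163 CPM in DMSO, 122 and 135 CPM at 150 nM and 204 and 213 CPM at 500 nM (0.32 ± 0.05, adjusted p = 0.000359). In the oxidative stress list it rose together with SQSTM1, against falls of GSR (-0.35) and ABCC1 (-0.20) among 23, and HMOX1 fell at its start peak (-0.51), a call kept only with DMSO replicate 1 left out. With any 1 library left out 1 of the 2 gains was called, and the 2 losses became 1 without DMSO replicate 2 and 0 without 500 nM replicate 2.

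AP-1 and immediate early genes had 4 of 28 higher, BATF3, FOS (0.78 ± 0.23), EGR1 (0.41 ± 0.10) and NR4A3 (0.30 ± 0.09), and none lower (1 at an unadjusted p under 0.05, 0 by DESeq2). FOS had 5.57 and 5.17 CPM in DMSO and 7.43 and 11 CPM at 500 nM, a wide spread, and leaving out DMSO replicate 2 gave a count of 2, leaving out 500 nM replicate 2 a count of 1. SESN2 and CDKN1A, the cell cycle inhibitor (0.29), were the 2 of 21 p53-linked genes that rose, with SESN2 alone left without replicate 2 of either treatment. Cholesterol genes had 4 of 24 lower, DHCR7 (-0.34) and SQLE (-0.31) of synthesis and the exporters ABCG1 (-0.31) and ABCA1 (-0.30), with 2 left without DMSO replicate 1 and 1 without 500 nM replicate 2. Of 19 genes of the NF-kB group NFKBIE, an inhibitor of the pathway, rose (0.27) and NFKB1 (-0.27) and TRAF1 (-0.15) fell. The 2 losses became 0 without DMSO replicate 1 or 500 nM replicate 2 and 1 without the other libraries. The next counts are near the shares over all genes and are no result about their groups. ISCU rose (0.38) and FBXL5 fell (-0.23) among 16 genes of iron handling, and E2F1 fell (-0.22) among 34 of DNA replication and the cell cycle. ISCU lost its call without DMSO replicate 1 or 500 nM replicate 2, FBXL5 without each library but DMSO replicate 2, and E2F1 without DMSO replicate 2.

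Interferon-stimulated genes, class I antigen presentation genes and the BCL2 family had no gene-wise call in edgeR. At an unadjusted p under 0.05 the 29 interferon-stimulated genes had 4 higher and 2 lower, the 14 class I genes 0 in either direction and the 15 BCL2 family genes 1 higher and 2 lower, and DESeq2 called 0 in all 3 lists. The start peak of BCL2L11, which codes for the death promoter BIM, rose (0.33 ± 0.10, adjusted p = 0.0245), and kept the call only with DMSO replicate 2 left out.

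**Figure D5:**
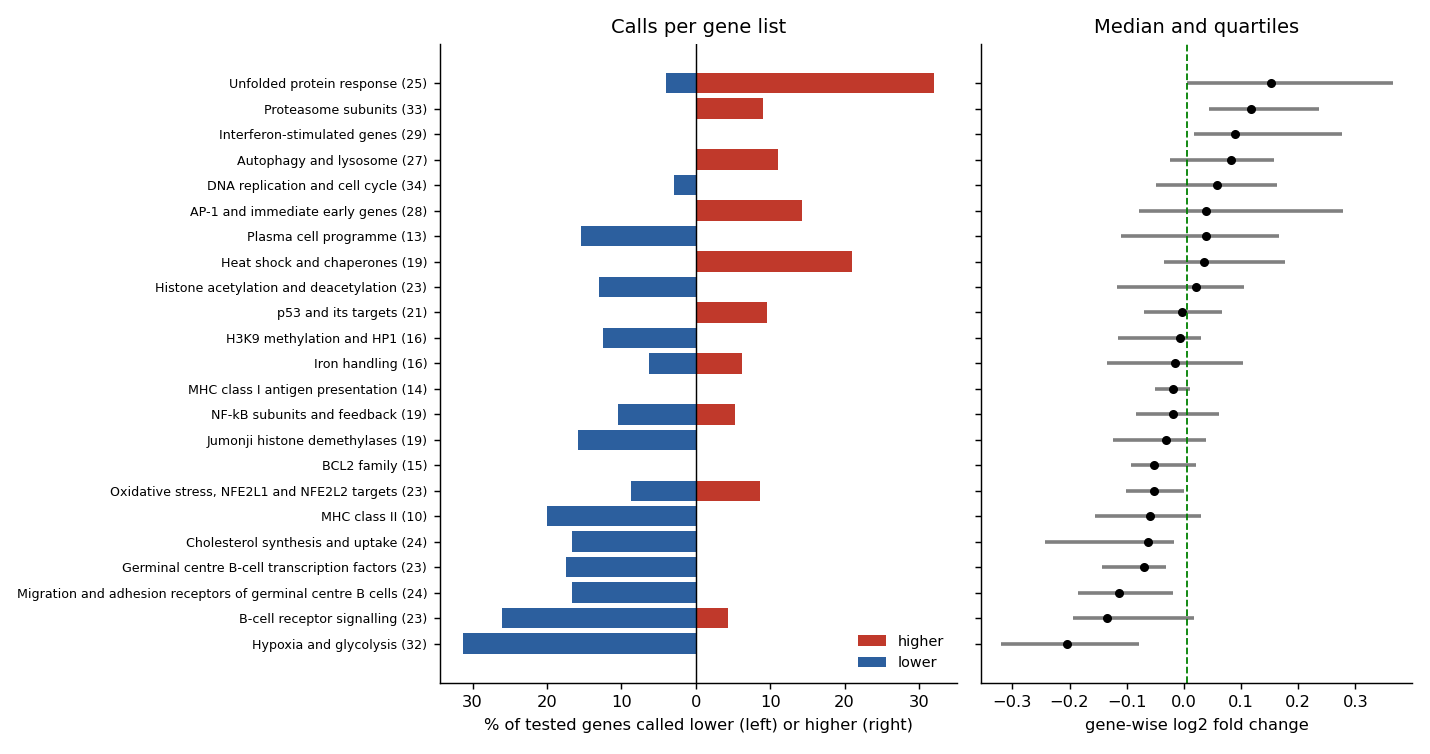
For 23 gene lists, with the genes measured in brackets, the share called lower (blue, to the left) or higher (red, to the right) in percent (left panel) and the median gene-wise log2 fold change with its quartiles (right panel, dashed line at the median of all genes). The unfolded protein response is highest, at 0.15, and hypoxia and glycolysis lowest, at -0.20.

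Motifs were counted in RefSeq promoters of 300 bases (250 before to 50 after the start), on both strands and as a description with no test. Promoters of gained start peaks numbered 639, of lost start peaks 178 and of all tested start peaks 15028, several of them belonging to the same gene. TGACGTCA, the cyclic AMP response element, was in 5.48% of promoters of gains, 0.562% of those of losses, 3.05% of those with a tested peak and 1.85% of all 34961 promoters. TGATGNAA was in 2.66%, 2.25%, 1.85% and 3.62% in that order. Of the 9 genes of the unfolded protein response with a gained start peak, ASNS and CHAC1 held it, their matches being the capitals printed above. CACGTG, the E-box, was in 12.2%, 11.8%, 9.98% and 7.27%, and TGANTCA, the AP-1 site, in 4.85%, 7.87%, 4.64% and 7.68%. TGACNNNGC, the core of antioxidant response elements, was in 16.4%, 10.7%, 15.1% and 13.4%, and the endoplasmic reticulum stress element in 0.313%, 0%, 0.126% and 0.0772%. ACGTG, which overlaps the E-box and was added after the hypoxia genes had been seen, was in 27.7%, 33.1%, 26.9% and 21.4%. Of the 7 hypoxia and glycolysis genes with a lost start peak 6 held it in a promoter (85.7%), all but ADM. By promoter this was 8 of 10. The share was 30.9% among the 11741 genes with a tested peak. List members whose start peak did not fall were not counted apart, so a link between ACGTG and the losses was not tested. The median share of G and C was 63.7% in promoters of gains, 62.7% in those of losses and 65% in those with a tested peak.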

How the data were processed

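ChIP-seq of H3K27ac and H3K4me3 in OCI-Ly1 cells was analysed from deposited read counts per consensus peak, which are not normalized. Per the file headers the authors counted with featureCounts 2.0.1, ignoring strand, with reads shared between peaks and a minimum read overlap of 0.2. Per the labels reads were single and 50 bp long, but the headers carry the paired-end setting, and whether reads or fragments were counted is not known. The submitters' processing notes name GRCh38, Trim Galore 0.6.7, BWA 0.7.17-r1188, Picard 2.27.4, MACS2 2.2.7.1, deepTools 3.5.1 and edgeR 3.42.4. Deposited starts have 1 added. The column of each library was taken from its title.

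The 4 libraries entered edgeR 4.0.16 in R 4.3.3 (filterByExpr, TMM, glmQLFit, glmQLFTest, Benjamini-Hochberg at 0.05 over all tested features). CPM of a peak is relative to reads in tested peaks and gene-wise CPM to the sum over tested genes, both with TMM factors. A change of all peaks alike is thus not measured. Levels at 150 nM come from a scaling over 6 libraries. SE is the log2 fold change over the root of F. Genes came from RefSeq, GRCh38.p14. A start site was listed for 27303 genes, and for 11037 others, 1602 of them on chromosome 8, either gene end was used. Exons, introns and UTRs were not analysed here, nor were input, H3K9me2 and H3K9me3 libraries. A peak may count for several genes, and overlapping genes cannot be told apart.

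Named peaks and genes had an adjusted p under 0.05, an abundance above the median and groups without overlap. The largest changes were taken, 6 each way at gene starts, 5 inside genes, 4 outside genes and 8 gene-wise, with the 3 longest runs each way. Lists name up to 4 called members by size and those with a called start peak. Other members were named after their values were seen. A few list members are counted but not reported by name here. The members, lists and tests were chosen with earlier results of these data known, and the synthetase list and ACGTG were added after values were seen. The check of paired numbers found a correlation of 0.01 between same-numbered deviations, so the replicate numbers were not used as pairs.

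On simulated counts with 200 features changed by 1 on the log2 scale, the peak test recovered 46.5% with 5 false among 98 calls (51455 peaks), and the gene-wise test 87% with 9 false among 183 calls (18200 genes). Both called 0 without change. Alternatives were other scalings and filters, the replicate block, all 6 libraries, DESeq2 1.42.0, stricter thresholds, wider or narrower gene windows and leaving out each library. Figures used matplotlib 3.10.9.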

Additional observations from a re-analysis of the deposited data

Results flagged for a closer look

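Peaks on chromosome Y and on contigs outside the assembled chromosomes are no part of the comparisons above and carried a signal of their own. Of 275 such peaks tested 82 were higher at 500 nM and 2 lower (edgeR, adjusted p under 0.05). Their summed level was 4196 and 3514 CPM in DMSO and 5353 and 5685 CPM at 500 nM, so both treated libraries lay above both controls. DMSO replicate 2, the lowest, is also the library with the fewest reads on the 5 unplaced contigs.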

How the results depend on the processing

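All 2021 called peaks and all 1575 called genes that an alternative measured kept their direction in it. The balance of gene-wise calls turned to more gains than losses under scaling by the total count, with 928 and 737, and over all 6 libraries, and the larger share of gains than of losses at gene starts turned without 500 nM replicate 2 and by DESeq2. Counts of calls depended on the test. Over all 6 libraries 318 peaks were higher and 125 lower, and 150 and 120 genes, and DESeq2 called 108 and 54 peaks, and 58 and 222 genes; every one of these was among the calls reported. At an adjusted p under 0.01 there were 573 and 329 peaks, and 262 and 415 genes, and with a log2 fold change of at least 1 there were 227 and 103 peaks, and 60 and 13 genes. With 1 library left out, peaks higher ranged from 378 to 629 and lower from 197 to 548, and genes higher from 284 to 488 and lower from 410 to 756. Pairs with both marks higher or lower numbered 61 and 98 at an overlap of 50% of both peaks, 21 and 23 by DESeq2 and 52 and 42 over 6 libraries. With 1 H3K27ac library left out and the H3K4me3 calls kept, such pairs numbered 52 to 87 and 69 to 179. With the replicate block 1340 peaks were higher and 1033 lower, and 996 and 1364 genes, but the replicate numbers share only a number. Other scalings, filters and gene windows stayed within 1.5 times. Of the single genes and peaks named, 47 genes and 48 peaks lost their call without 500 nM replicate 2, the most of the 4 libraries. Causes were not tested, except that fewer libraries give fewer calls by construction. Depth limits single peaks, with a median of 21 to 24 reads.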
